A study of Mus musculus with 2 samples.

Results

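The genes described here are 37 targets of the transcription factor NRF2 and genes of the glutathione and thioredoxin antioxidant systems, listed by symbol and below called members, and 34 of them were measured among the 19938 genes of the array. They were examined in BV2 cells, an immortalized mouse microglial cell line, after incubation in DMEM/F12, a high-nutrient medium, or in DMEM, the control medium, both with fetal bovine serum and antibiotics. According to the methods all cells were plated in DMEM/F12 and the medium was exchanged on the next day, so the DMEM/F12 cells received the same medium again, whereas the DMEM cells had left it, for 1 d by the methods and longer than 1 d by the labels. Each medium is represented by 1 culture and 1 Affymetrix Mouse Gene 1.0 ST array, which gives a log2 value for each transcript cluster, a group of probes that measures a gene or a part of one.

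With 1 array per medium there was no replicate error, no p-value could be calculated, and each difference below compares these 2 arrays. A positive difference means a higher log2 value in DMEM/F12 than in DMEM. A gene with several clusters takes their mean. Background was taken from 1248 clusters of chemosensory receptor genes (olfactory, vomeronasal, taste), whose 95th percentile was 4.17 on the DMEM/F12 array and 4.15 on the DMEM array. Above it on at least 1 array were 13225 genes, with a median difference of 0.00 (SD over genes 0.22). Of 13 microglia and macrophage markers 11 were above background, among them Cd68, Csf1r, Spi1 and Tyrobp, whereas Aif1 and P2ry12 were not on either array. The 13 had a median difference of 0.01, with 7 higher and 5 lower, and ranged from Tmem119, with 6.05 in DMEM/F12 and 6.71 in DMEM, to Trem2, with 9.63 in DMEM/F12 and 9.23 in DMEM. The part of these markers in the results below was not tested. Of the markers of other brain cells, none of 5 for astrocytes, 1 of 5 for neurons and 3 of 4 for oligodendrocytes were above background, and none of these 4 exceeded 5.05 in DMEM/F12 or 5.09 in DMEM, the values of Mbp. In RNA of a whole culture, fewer cells that express a gene and less RNA per cell cannot be told apart.

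NRF2, encoded by Nfe2l2, is the main activator of antioxidant and detoxifying enzymes. In unstressed cells the adaptor KEAP1 delivers it to the CUL3 ubiquitin ligase for degradation, and when electrophiles or oxidants modify KEAP1, NRF2 accumulates, pairs with a small MAF protein and binds antioxidant response elements near its target genes. The targets supply cystine and glutathione, reduce thioredoxin and peroxides, provide NADPH and conjugate or export reactive compounds. In microglia and macrophages this system limits oxidant damage during phagocytosis and inflammation.

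More of these genes were higher in DMEM/F12 than lower. Of the 34 measured genes 25 were higher, 7 were lower and 2 were equal, with a median difference of 0.145 (0.085 if dim values are set to background) and a range from -0.27 to 0.81. Of all 19938 genes 47.2% were higher, with a median of 0.00. At a log2 difference of 0.322 or more, which is a signal at least 25% higher, 9 of the 34 were higher, where 7.22% of all genes were. At -0.322 or less none was lower, where 6.5% of all genes were. At 1.5-fold or more 3 were higher, namely Slc7a11, Cat and Srxn1 (without Srxn1 when each array is centred on its median), where 0.928% of all genes were, and none was lower, where 0.727% were. The largest difference, that of Slc7a11, was 1.75-fold. Members and thresholds were chosen with earlier results of these data known, so these counts and shares are a description only.

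Of the 34 genes 31 were above background, each on both arrays. Among these 22 were higher, where 48.5% of the 13225 genes above background were, and the median difference was 0.14. At 0.322 or more 9 of 31 were higher, where 6.04% of genes above background were, and at -0.322 or less none was, where 5.99% were. Gsta4, Gstt1 and Nqo1 were not above background on either array. No cluster is paired with Prdx5, Prdx6 or G6pdx alone in the annotation used, so these 3 members have no value here.

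**Figure D1:**
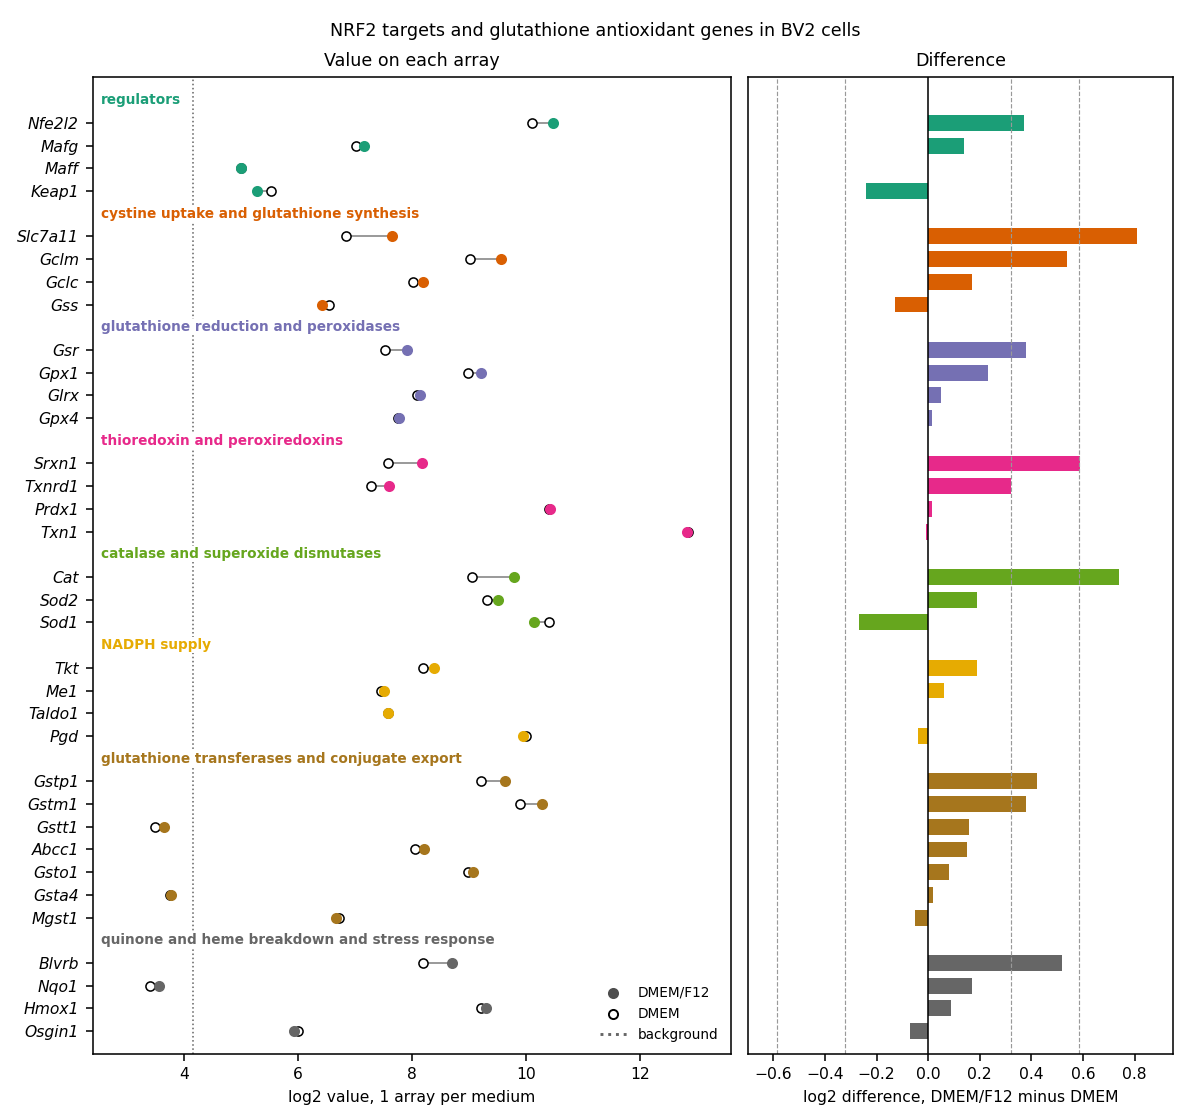
Left, log2 value of each of the 34 measured genes (y axis, grouped by role) on the DMEM/F12 array (filled circles) and the DMEM array (open circles), with the dotted line at the background of the DMEM/F12 array. Right, the difference between the media (log2, positive where DMEM/F12 is higher), with dashed lines at 0.322 and at 1.5-fold in each direction. The longest bars are those of Slc7a11 (0.81), Cat (0.74) and Srxn1 (0.59), and the lowest is that of Sod1 (-0.27).

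**Figure D2:**
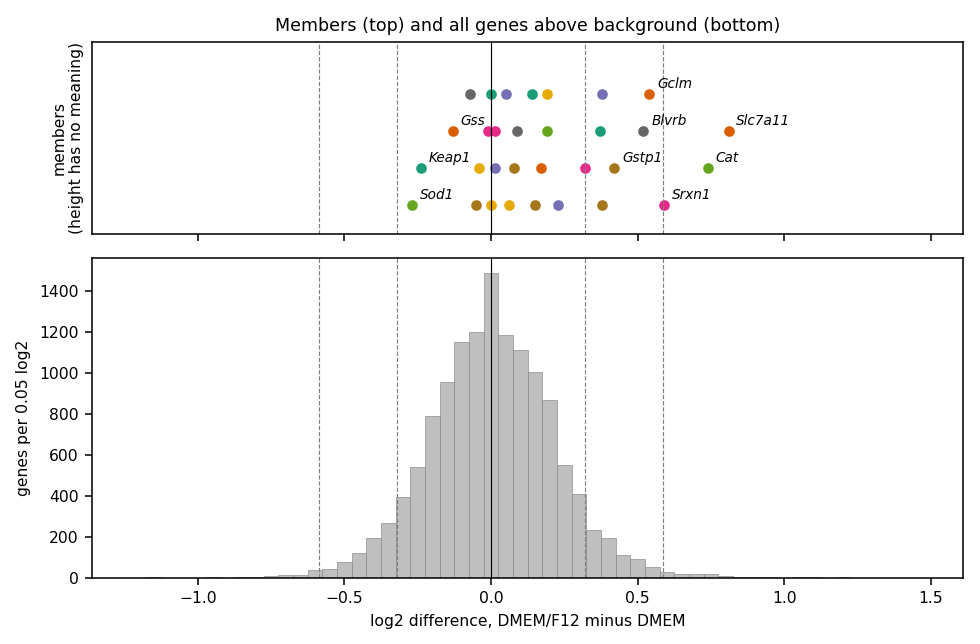
Difference in log2 value between DMEM/F12 and DMEM (x axis, positive where DMEM/F12 is higher) of the 31 members above background (top, 1 dot per gene, coloured by role) and of all 13225 genes above background (bottom, number of genes in steps of 0.05). Dashed lines mark 0.322 and 1.5-fold in each direction, and 9 members lie to the right of 0.322 and none to the left of -0.322.

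Because the antioxidant response element is the sequence that NRF2 binds, the RefSeq promoters of the members (build GRCm38.p6, 250 bases before to 50 bases after each transcription start) were searched on both strands for its core TGACNNNGC. It was found for 12 of the 31 members in the promoter table (38.7%), and for 14.0% of all 27025 genes and 12.4% of all 32851 promoters in it. A match is a description of the letters only. The members not in the promoter table were Gclc, Gsr, Prdx6, Gsta4, Abcc1 and Hmox1. Below are 4 matches of genes that were higher in DMEM/F12 and 3 of genes that were close to equal or lower, with the core in capitals, each printed on the strand on which the core reads TGAC first and with the position of its centre counted from the transcription start.
Nfe2l2, chr2:75704885-75704913, minus strand, position -236: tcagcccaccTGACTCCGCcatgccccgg
Gclm, chr3:122245413-122245441, minus strand, position -130: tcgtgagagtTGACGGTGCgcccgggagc
Txnrd1, chr10:82859104-82859132, minus strand, position -88: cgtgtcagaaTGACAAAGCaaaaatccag
Srxn1, chr2:152105542-152105570, minus strand, position 33: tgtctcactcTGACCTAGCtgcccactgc
Prdx1, chr4:116685456-116685484, minus strand, position -129: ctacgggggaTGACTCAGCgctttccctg
Me1, chr9:86695902-86695930, minus strand, position -2: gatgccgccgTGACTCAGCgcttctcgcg
Sod1, chr16:90220696-90220724, minus strand, position -52: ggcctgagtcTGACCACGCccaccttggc
The 7 cores differ in the bases between TGAC and GC, except that Prdx1 and Me1 hold the same 9 letters. Members with a core in this window did not have the higher median. The 11 measured members with a match had a median difference of 0.06, with 7 of 11 higher. The 18 without a match had a median of 0.165, with 13 of 18 higher, where 47.2% of all genes were higher. The median of 0.165 lies between the differences of Gstt1 (0.16) and Nqo1 (0.17), which were below background on both arrays. Slc7a11 and Cat, which had the highest differences, hold no match in these windows, which says only that the letters are not there. Over the genes above background in the promoter table the median difference was 0.01 for the 1713 with a match and 0.00 for the 8799 without.

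**Figure D3:**
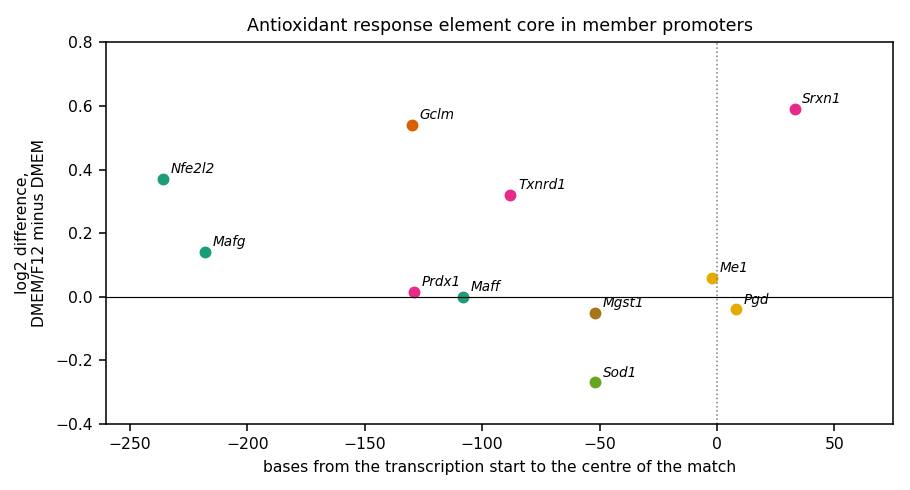
Difference in log2 value between DMEM/F12 and DMEM (y axis, positive where DMEM/F12 is higher) of the 11 measured members with a match to the core TGACNNNGC against the distance from the transcription start (dotted line) to the centre of the match, in bases (x axis). Dots are coloured by role; Gclm at -130 and Prdx1 at -129 have nearly the same position and differences of 0.54 and 0.015.

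Among the regulators, the gene of NRF2 itself was higher in DMEM/F12 and the gene of its repressor was lower. Nfe2l2 had a log2 value of 10.48 in DMEM/F12 and 10.11 in DMEM (1.29-fold higher). Keap1 had 5.29 in DMEM/F12 and 5.53 in DMEM. Its difference of -0.24 did not reach -0.322 and was close in size to the SD over genes (0.22). Mafg, which encodes a small MAF partner of NRF2, had 7.16 in DMEM/F12 and 7.02 in DMEM, while Maff, another small MAF gene, had 5.00 in both media. Thus 1 of the 4 regulators passed 0.322, and NRF2 protein, whose stability KEAP1 controls, was not measured by the array.

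The genes of cystine uptake and glutathione synthesis held the highest member. Slc7a11, which encodes the xCT subunit of the cystine and glutamate exchanger, had 7.66 in DMEM/F12 and 6.85 in DMEM (1.75-fold higher) and ranked 21 of the 13225 genes above background by its difference. Glutamate-cysteine ligase, the rate-limiting enzyme of glutathione synthesis, has a modifier subunit encoded by Gclm, with 9.57 in DMEM/F12 and 9.03 in DMEM (1.45-fold higher, rank 139). Its catalytic subunit gene Gclc had 8.20 in DMEM/F12 and 8.03 in DMEM, a smaller difference of 0.17. Gss, which encodes glutathione synthetase, the last step, was lower, with 6.42 in DMEM/F12 and 6.55 in DMEM. The subunit genes of glutamate-cysteine ligase were thus both higher, by 0.54 and 0.17.

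Of the genes that keep glutathione reduced or use it against peroxides, all 4 had higher values in DMEM/F12, where 47.2% of all genes had. With each array centred on its median, 3 were higher and the difference of Gpx4 was 0.00. Gsr was the only one past 0.322. The differences of Glrx (0.05) and Gpx4 (0.015) were small beside the SD over genes (0.22). Gsr, which encodes glutathione reductase, had 7.91 in DMEM/F12 and 7.53 in DMEM (1.30-fold higher). Gpx1, the cytosolic glutathione peroxidase, had 9.21 in DMEM/F12 and 8.98 in DMEM. Glrx, which encodes a glutaredoxin that removes glutathione from proteins, had 8.14 in DMEM/F12 and 8.09 in DMEM. Gpx4, which reduces lipid peroxides in membranes and protects against ferroptosis, lay closest to equal. Its cluster 10363000 had 7.82 in DMEM/F12 and 7.80 in DMEM, and its cluster 10364675 had 7.73 in DMEM/F12 and 7.72 in DMEM.

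Among the 4 measured members of the thioredoxin system, Srxn1 and Txnrd1 were higher, while Txn1 and Prdx1 were nearly equal. Srxn1, which encodes sulfiredoxin, the enzyme that restores overoxidized peroxiredoxins, had 8.18 in DMEM/F12 and 7.59 in DMEM (1.51-fold higher, rank 95). Txnrd1, the cytosolic thioredoxin reductase, had 7.60 in DMEM/F12 and 7.28 in DMEM, just below the 0.322 limit. Txn1, which encodes cytosolic thioredoxin, had 12.83 in DMEM/F12 and 12.84 in DMEM. The 2 clusters of Prdx1, a thioredoxin-dependent peroxidase, differed by 0.04 and -0.01. The first, 10436048, had 10.94 in DMEM/F12 and 10.90 in DMEM, and the second, 10507328, had 9.92 in DMEM/F12 and 9.93 in DMEM.

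Of the genes of enzymes that remove superoxide and hydrogen peroxide without glutathione, Cat and Sod2 were higher in DMEM/F12 and Sod1 was lower. Cat, which encodes the peroxisomal enzyme catalase, had 9.80 in DMEM/F12 and 9.06 in DMEM (1.67-fold higher, rank 35). Sod2, the manganese superoxide dismutase of mitochondria, had 9.52 in DMEM/F12 and 9.33 in DMEM. Sod1, the copper and zinc superoxide dismutase, was the lowest of all measured members, with 10.14 in DMEM/F12 and 10.41 in DMEM (1.21-fold lower, rank 11952 of 13225).

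None of the 4 measured members that supply NADPH, the electron donor for glutathione and thioredoxin reductase, passed 0.322, and G6pdx has no value. Tkt, which encodes transketolase of the pentose phosphate pathway, had 8.39 in DMEM/F12 and 8.20 in DMEM, a difference of 0.19. Taldo1, the gene of transaldolase, which acts in the same pathway, had 7.59 in both media. Pgd, which encodes the second NADPH-producing dehydrogenase of that pathway, had 9.96 in DMEM/F12 and 10.00 in DMEM. The 2 clusters of Me1, the cytosolic malic enzyme, differed by 0.13 and -0.01. Cluster 10405753 had 7.48 in DMEM/F12 and 7.35 in DMEM, and cluster 10595480 had 7.56 in DMEM/F12 and 7.57 in DMEM.

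Of the glutathione transferases, which join glutathione to electrophiles, Gstp1 and Gstm1 were higher in DMEM/F12 and the others differed little. Gstp1 had 9.64 in DMEM/F12 and 9.22 in DMEM (1.34-fold higher). Gstm1 had 10.28 in DMEM/F12 and 9.90 in DMEM (1.30-fold higher). Both belong to families of close copies, whose transcripts the probes may share. Gsto1, an omega-class transferase that also reduces dehydroascorbate, had 9.07 in DMEM/F12 and 8.99 in DMEM, and Mgst1, a microsomal transferase, had 6.68 in DMEM/F12 and 6.73 in DMEM. Abcc1, which encodes the MRP1 pump that exports glutathione conjugates, had 8.21 in DMEM/F12 and 8.06 in DMEM. The alpha-class gene Gsta4, which acts on lipid aldehydes, had 3.78 in DMEM/F12 and 3.76 in DMEM, and the theta-class gene Gstt1 had 3.65 in DMEM/F12 and 3.49 in DMEM, all below background.

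Blvrb stood apart from Hmox1 in heme breakdown. Blvrb, which encodes a biliverdin reductase that also acts as a flavin reductase, had 8.71 in DMEM/F12 and 8.19 in DMEM (1.43-fold higher, rank 164). Hmox1, the gene of heme oxygenase, which makes biliverdin from heme, had 9.30 in DMEM/F12 and 9.21 in DMEM, a difference of 0.09. Osgin1, an oxidative stress-induced growth inhibitor gene, had 5.93 in DMEM/F12 and 6.0 in DMEM. Nqo1, a quinone reductase gene that is often used as a readout of NRF2 activity, had 3.57 in DMEM/F12 and 3.40 in DMEM, below background on both arrays, so that its order between the media is not resolved.

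The further lists hold genes of the pathway and also Atf4, which encodes the transcription factor of the amino acid response, and its targets. Together their 118 measured genes, from 7 lists, were about as often lower as higher. Higher values were found for 58 of them and lower values for 56 (median 0.00), where 47.2% of all genes were higher. Of the 118, 10 lay at 0.322 or more and 10 at -0.322 or less, where 7.22% and 6.5% of all genes did. The members' own median of 0.145 stood above the median of each of the 7 lists, which ran from -0.16 to 0.09. Members and lists were chosen with earlier results of these data known, so this order is a description only. With values below background raised to it, the members' median was 0.085 and those of the lists ran from -0.09 to 0.07. The highest list median was that of other NRF2 targets and the lowest that of other thioredoxin, peroxidase and repair genes.

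Among partners of NRF2 and genes of its degradation 8 of 13 were higher and 4 lower (median 0.08), where 47.2% of all genes were higher. Bach1, which encodes a repressor that competes with NRF2 for its sites, had 6.68 in DMEM/F12 and 6.29 in DMEM, the only gene of the list past 0.322. Sqstm1, the gene of p62, which binds KEAP1 and is itself an NRF2 target, had 10.28 in DMEM/F12 and 10.02 in DMEM. Cul3, the scaffold of the ligase that KEAP1 serves, differed by 0.11. Among 21 other NRF2 targets 14 were higher and 5 lower (median 0.09). Of the 21, 2 lay at 0.322 or more and 3 at -0.322 or less, where 7.22% and 6.5% of all genes did. Slc40a1, which encodes the iron exporter ferroportin, had 5.76 in DMEM/F12 and 5.27 in DMEM. Slc6a9, a glycine transporter gene, had 6.82 in DMEM/F12 and 7.22 in DMEM. Also past 0.322 in size were Akr1b8 and Abcc3, at -0.33 and -0.34, and Aox1, at 0.36 but below background on both arrays. The ferritin genes Ftl1 and Fth1, which code for the iron storage protein, differed by 0.12 and 0.00. Cul3, Akr1b8, Abcc3, Aox1, Ftl1 and Fth1 were picked after their values were seen.

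Of 16 other glutathione transferase genes 8 were higher and 7 lower, where 47.2% of all genes were higher. Their median was 0.05, or -0.01 over the 13 above background. Mgst3, a microsomal transferase gene, had 6.41 in DMEM/F12 and 6.08 in DMEM, and Gstm2, a close copy of Gstm1, had 8.17 in DMEM/F12 and 7.87 in DMEM. Mgst2, another microsomal transferase gene, was lower by as much as Gstm2 was higher, with 6.19 in DMEM/F12 and 6.49 in DMEM. Among other genes of glutathione synthesis and turnover, 5 of 14 were higher and 9 lower (median -0.075), where 47.2% of all genes were higher. Chac2, which encodes an enzyme that degrades glutathione, had 5.39 in DMEM/F12 and 5.76 in DMEM, and Ggt7, of the gamma-glutamyltransferase family, had 5.80 in DMEM/F12 and 6.15 in DMEM. Cbs, the gene of cystathionine beta-synthase, which starts the route from homocysteine to cysteine, was higher by as much as Ggt7 was lower, with 5.26 in DMEM/F12 and 4.91 in DMEM. Slc3a2, the gene of the heavy chain that pairs with the product of Slc7a11, had 10.89 in DMEM/F12 and 10.86 in DMEM, so the exchanger's subunit genes differed by 0.03 and 0.81.

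The list of other thioredoxin, peroxidase and protein repair genes had a median below 0, at -0.16. Of its 25 genes 18 were lower in DMEM/F12 and 7 higher, where 9080 of all 19938 genes were lower. The ends of the list were Txnip and Glrx3. Txnip, which encodes an inhibitor that binds reduced thioredoxin, had 10.01 in DMEM/F12 and 9.08 in DMEM, a difference of 0.93 that exceeded that of every member. Glrx3, a glutaredoxin gene that serves iron-sulfur cluster handling, had 4.97 in DMEM/F12 and 5.63 in DMEM. The following were picked after their values were seen. The peroxiredoxin genes Prdx2, Prdx3 and Prdx4 differed by -0.19, -0.21 and -0.16, beside 0.015 for Prdx1. The thioredoxin reductase genes Txnrd2 and Txnrd3 differed by 0.10 and -0.08, beside 0.32 for Txnrd1. The glutaredoxin genes Glrx2 and Glrx5 differed by -0.08 and -0.32, and Ccs, which encodes the copper chaperone of SOD1, by -0.23 beside -0.27 for Sod1 itself. Of the other NADPH genes 10 of 17 were higher and 7 lower (median 0.05), where 47.2% of all genes were higher. Nnt, the mitochondrial transhydrogenase gene, had 7.80 in DMEM/F12 and 7.28 in DMEM, and Aldh1l2, a mitochondrial folate dehydrogenase gene, had 5.23 in DMEM/F12 and 5.72 in DMEM.

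**Figure D4:**
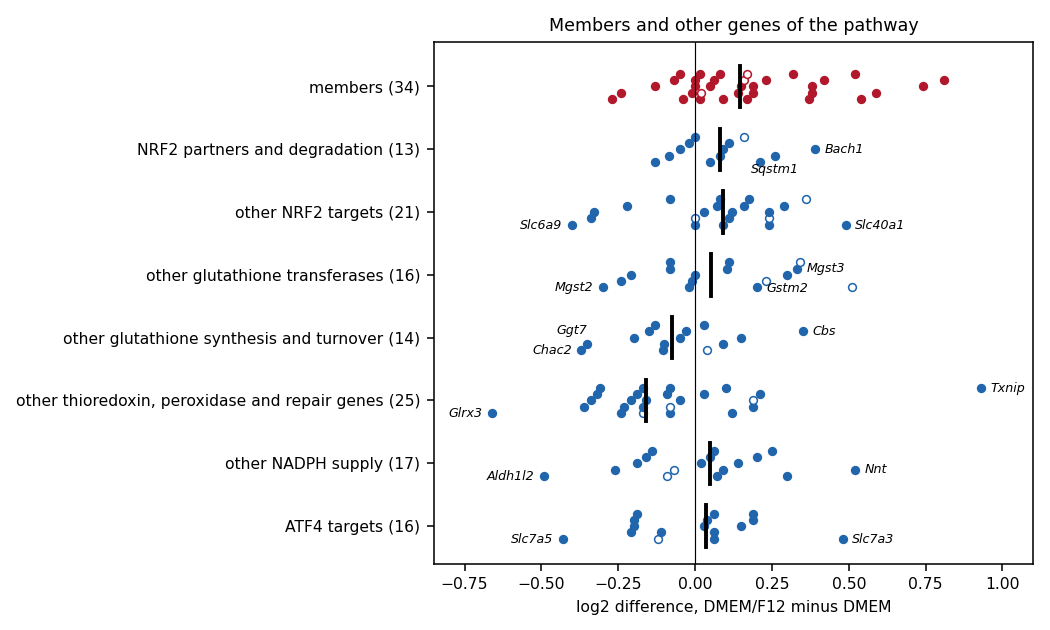
Difference in log2 value between DMEM/F12 and DMEM (x axis, positive where DMEM/F12 is higher) of the 34 measured members (red) and of the genes of 7 other lists (blue; number measured in parentheses on the y axis). Each dot is 1 gene, filled where it was above background on at least 1 array, and black bars are list medians; the median is 0.145 for the members and -0.16 for the other thioredoxin, peroxidase and repair genes.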

How the data were processed

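RNA of BV2 cells was measured on 1 Affymetrix array for DMEM/F12 and 1 for DMEM. For 28944 transcript clusters the authors deposited log2 values with 2 decimals. The programs named in the labels and methods are Affymetrix Expression Console and the Transcriptome Analysis Console. The sources used here do not give how probes were summarized, whether arrays were normalized to each other or which genome build was used, and no coordinates of clusters are printed. The samples were grouped by the submitters' treatment labels. Of the clusters, 21789 have exactly 1 symbol in the platform annotation and were used. The 2 clusters that name Gstp1 beside another gene were not. Values were used without further scaling or filter, and no test was run, since 1 array per medium gives no error. Precision is limited by the number of arrays.

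The members, gene lists and thresholds were chosen with earlier results of these data known. All members are named, and of each of the 7 other lists the 2 genes above background that differed most in either direction, with ties kept. A few further genes, markers included, were named outside this rule after their values were seen. All 37 member symbols are RefSeq symbols of GRCm38.p6. Alternatives were median centring, quantile normalization, loess centring (span 0.3), the brightest cluster per gene, values below background raised to it, and only genes above background. Python 3.11.15 with numpy 2.4.6, pandas 2.3.3, statsmodels 0.14.6 and matplotlib 3.10.9 was used. The gene differences and the median, quantile and loess scalings were checked on simulated data. The planted shifts there were larger than the difference of any member. The background, motif search and list counts were not checked in this way.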

Additional observations from a re-analysis of the deposited data

How the results depend on the processing

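No paired analysis was possible because there is a single array of each medium. A shift of over 0.1 in a log2 value, or of over 1.5 times in a count, was called a move. By this measure none of the 13 counts and medians moved under the 6 alternatives. The limit is wide beside these medians, which lay between -0.16 and 0.145, so it says little about them. The median of other glutathione transferases changed sign within it, from 0.05 to -0.01 over genes above background. That of other thioredoxin, peroxidase and repair genes went from -0.16 to -0.09 with values below background raised to it. The count of members higher in DMEM/F12 was 23 to 25 of 34, and 22 of the 31 above background, and the count at 0.322 or more was 9 or 10, and no member was at -0.322 or less. The median difference of the members was 0.085 when dim values were raised to background and otherwise 0.13 to 0.145. Srxn1 lies so close to 1.5-fold that 2 members, not 3, passed it with median centring. The median over all genes shifted by 0.02 or less. Of the 34 members, Nqo1 and Gstt1, both below background, moved, to 0.02 each with values raised to background. Their order between the media is not resolved at that signal.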

Other observations

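Slc7a11 is known as a target of ATF4, the transcription factor of the amino acid response, as well as of NRF2. Of 16 measured genes in a list of Atf4 and its targets, 9 were higher in DMEM/F12 and 7 lower, where 47.2% of all genes were higher. Their median difference was 0.035. Atf4 itself differed by -0.21 and Trib3 by -0.11. Asns, the asparagine synthetase gene, differed by 0.06, Cth by 0.15, and Atf3 and Sesn2 by 0.19 each. The part of ATF4 in the difference of Slc7a11 (0.81) was not tested. The amino acid transporter genes at the ends of the list were Slc7a3, with 4.21 in DMEM/F12 and 3.73 in DMEM, where the DMEM value lies below background, and Slc7a5, with 9.41 in DMEM/F12 and 9.84 in DMEM. The list shares Slc3a2, Chac1, Cth and Sesn2 with lists of the pathway described above, and its genes are among the 118 counted there. Asns, Trib3, Cth, Atf3, Sesn2 and Atf4 were picked after their values were seen.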
